A study of Mus musculus with 33 samples.

Results

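Chromatin was examined at 10 genes that regulate or mark blood and endothelial cells: Tal1, Lmo2, Gata2, Runx1, Klf1, Fli1, Sox18, Kdr, Cdh5 and Pecam1. The genes were chosen by name, and all 10 were found among the 22367 protein-coding genes of the mouse mm9 annotation. Each gene start was called positive for H3K4me3 when a deposited domain lay within 2 kb, and for H3K27me3 or H3K9me3 when one lay within 5 kb. A start with both H3K4me3 and H3K27me3 was classed as bivalent, one with H3K4me3 alone as active, one with H3K27me3 alone as repressive and one with neither as no mark. Summits of Oct4, Sox2 and Nanog were assigned to a gene when they lay within 20 kb of its body, and Uhrf1 when an enriched window overlapped the gene.

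The study compared wild-type (WT) E14 mouse embryonic stem cells (mESC), an established line, with cells lacking Uhrf1 (Uhrf1 KO), a chromatin protein that reads methylated DNA and histone H3 and helps to keep DNA methylation through cell division. H3K4me3 and H3K27me3 were mapped by ChIP-seq in undifferentiated cells and in embryoid bodies (EBs) of both genotypes at weeks 1, 2 and 3. H3K9me3, Oct4, Sox2 and Nanog were mapped in mESC of both genotypes, and Uhrf1 in WT mESC only. EBs were begun as hanging drops and hold several lineages at once, and the mESC were grown in serum and leukemia inhibitory factor on gelatin or on mouse embryonic fibroblasts. The WT and KO cells came from another laboratory, and the sample labels name no second KO line. Every combination of genotype, stage and target was 1 library, so no difference below could be compared with a spread between replicates, and no test was possible. In a mixed population, a mark on more cells and more of a mark per cell cannot be told apart.

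In the embryo, blood and endothelium arise close together from mesoderm that carries Kdr, the receptor for vascular endothelial growth factor. Tal1, Lmo2, Gata2, Fli1 and Runx1 form a network of transcription factors that bind one another's regulatory DNA, and Tal1 and Lmo2 proteins sit in a single complex with GATA factors. In stem cells, starts of such developmental genes often carry H3K4me3, a mark of active starts, together with H3K27me3, the mark laid down by Polycomb complexes. That combination is known as bivalency and is associated with genes that are silent but can be switched on later.

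The lists differed in size between genotypes, which bears on every comparison. The number of domains ran from 11509 to 39898 for H3K4me3 and from 722 to 9488 for H3K27me3, and the smallest of all was H3K27me3 in Uhrf1 KO mESC, with 722 domains over 84.1 Mb against 8161 domains over 959.7 Mb in WT. The median domain of that KO list had 0.914 reads per bin, against 4.93 in WT mESC and 5.14 to 12.2 in the EB lists. These values may not be scaled between libraries. A missing H3K27me3 call in KO mESC therefore rests on 1 library of low signal and need not be a loss of the mark. The Oct4 list held 12898 summits in WT and 576 in KO, whereas the Sox2 list held 5190 and 20755 summits and the Nanog list 2390 and 10632. H3K4me3 domains were called in bins of 1300 bp in mESC of both genotypes and of 350 or 400 bp in EBs. Their lengths in mESC and in EBs were therefore measured at different resolution. As a check of the labels, 7 of 8 stem cell marker genes had H3K4me3 in mESC of each genotype, all but Esrrb. The same 7 of 8 had it again in each EB library at weeks 2 and 3, and 5 of 8 in WT and 2 of 8 in KO EBs at week 1. All 5 cardiac muscle markers had H3K4me3 at week 1 in both genotypes. In WT and KO they numbered 2 and 0 in mESC, 3 and 3 at week 2, and 2 and 1 at week 3. The 4 neuroectoderm markers numbered 4 and 3 in mESC, 4 and 1 at week 1, and 4 and 4 at weeks 2 and 3. Of 5 endoderm markers, 3 and 2 had it in mESC, 4 and 5 at week 1, 5 and 5 at week 2, and 4 and 5 at week 3. All 4 feeder or stromal markers had it in every library except KO EBs at week 1, with 3. In WT mESC all 4 of these also had H3K27me3, as did 3 of the 4 neuroectoderm markers. In KO mESC 1 of the 4 feeder or stromal markers and 2 of the 4 neuroectoderm markers had both marks. H3K4me3 alone was therefore not read as the presence of such cells. The start of Uhrf1 itself was active in all 8 cell states, which is no check of the knockout, since a mark at the start need not change with a deletion further in.

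In WT mESC, 5 of the 10 genes were bivalent (Tal1, Gata2, Kdr, Sox18 and Fli1), against 18.3% of all coding genes. Lmo2 and Cdh5 were repressive, Klf1 was active, and Runx1 and Pecam1 had no mark at their annotated starts. In Uhrf1 KO mESC only Sox18 was bivalent, where 4.29% of all genes were. Of the 5 genes bivalent in WT, 3 (Tal1, Gata2 and Fli1) had neither mark in KO, a route taken by 19% of all WT bivalent genes. Kdr was active in KO, the commonest route among all WT bivalent genes at 60.5%, and Sox18 was bivalent in both genotypes, as 14.6% of them were. None of the 5 was repressive in KO, a class that held 5.8% of them. The class differed between genotypes at 5 of the 10 genes, compared with 36.4% of all genes.

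**Figure D1:**
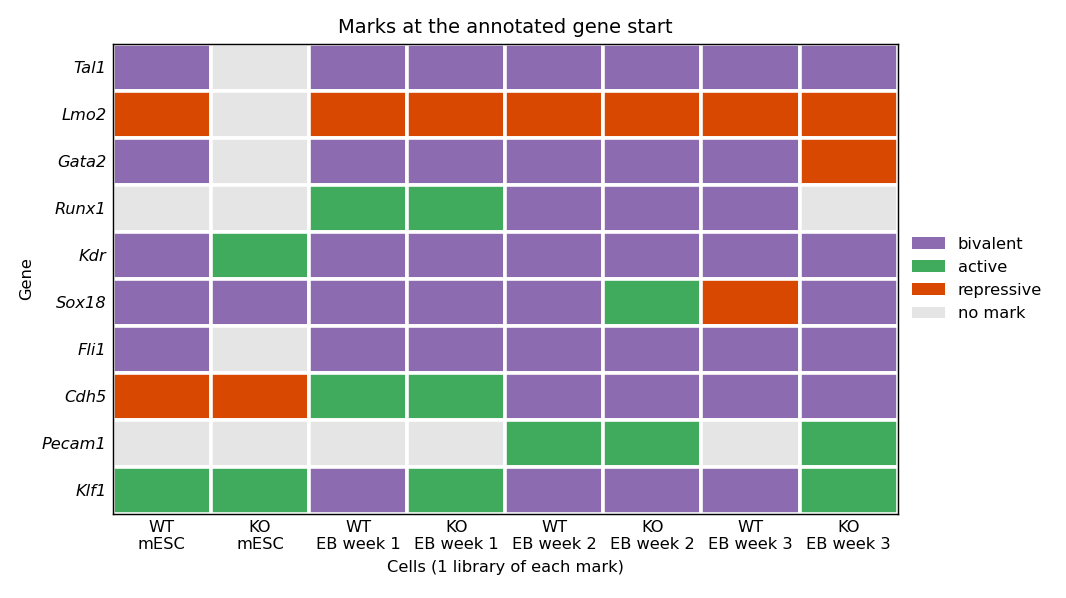
Class of each gene start (rows) in the 8 cell states (columns, WT beside Uhrf1 KO at each stage); colours give bivalent (H3K4me3 and H3K27me3), active (H3K4me3 alone), repressive (H3K27me3 alone) or no mark, from 1 library of each mark. Tal1, Kdr and Fli1 were bivalent in 7 of 8 states and differed only in KO mESC, while Cdh5, Runx1 and Klf1 moved to bivalent in EBs.

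Both marks were listed at fewer of the genes in KO mESC. H3K4me3 was present at 6 of 10 in WT and 3 of 10 in KO, against 63.2% and 57% of all genes. H3K27me3 was present at 7 of 10 in WT and 2 of 10 in KO, against 34.9% and 7.57%. The size of the lists moved with these counts, and the KO mESC H3K27me3 list also had the lowest median of reads per bin. The WT lists of both marks were cut to the numbers of the KO lists by keeping the highest scores, which favours long domains. Then 1 of the 10 genes was bivalent in WT (Fli1), against 2.98% of all genes. The KO lists were the smaller and were not cut, so the KO count stayed at 1 (Sox18, with 4.29% of all genes). The H3K4me3 lists were closer in size, with 15272 domains in WT and 11509 in KO mESC. The WT H3K4me3 domain scored above 77% of its list at Tal1, 49.1% at Fli1 and 17.1% at Gata2, the genes with none in KO.

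In the EBs, bivalency was called at 5 to 7 genes in KO. At week 1, 6 genes were bivalent in WT and 5 in KO, against 15.2% and 10.7% of all genes. At week 2 there were 8 and 7, against 13.7% and 13.4%, and at week 3 there were 7 and 5, against 19.6% and 11.3%. The class differed between genotypes at 1 gene at week 1, Klf1 (18.1% of all genes), and at 1 gene at week 2, Sox18 (29%). At week 3 it differed at 5 genes, namely Gata2, Runx1, Sox18, Pecam1 and Klf1, against 23% of all genes. These counts moved with the rule. With at least 50% of the window covered the class differed at 5 genes in mESC and at 4, 5 and 4 at weeks 1, 2 and 3, with domains above the median score at 4, 3, 4 and 3, and at any annotated start at 7, 1, 1 and 2. The share of all genes whose class differed under these other rules is not given, so these counts have no background beside them. H3K4me3 was listed at the same number of genes in both genotypes at each stage: 8 at week 1 (62.1% of all genes in WT and 57% in KO), 9 at week 2 (65.7% and 64.5%) and 7 at week 3 (66.2% and 65.8%). H3K27me3 was listed at 7 in WT and 6 in KO at week 1 (20.5% and 21.1%), 9 and 8 at week 2 (29.8% and 24.1%), and 9 and 7 at week 3 (33.2% and 19.5%). The week 3 differences in class ran in both directions, since Sox18 and Pecam1 had H3K4me3 in KO alone and Gata2 and Runx1 in WT alone. Tal1, Gata2, Kdr and Fli1, 4 of the 10, were bivalent in WT mESC and at every WT EB stage, against 5.85% of coding genes.

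Tal1, a helix-loop-helix factor needed to begin blood formation, had a broad H3K4me3 domain of 16.9 kb in WT mESC. It reached from -7.93 to 8.97 kb of the start, negative values being upstream, and lay under a 108 kb stretch of H3K27me3. No domain of either mark was listed there in KO mESC. In EBs both marks were present in both genotypes, and the H3K4me3 domain measured 18 kb in WT and 12.6 kb in KO at week 1, 16 and 10.5 kb at week 2, and 12.8 and 17.2 kb at week 3. The KO domain was thus the shorter at weeks 1 and 2 and the longer at week 3.

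Lmo2, the LIM-only partner of Tal1, had different classes at its different starts. At its annotated start it had H3K27me3 without H3K4me3 in every library but KO mESC, which had neither. A second cluster of 8 annotated starts lies 11.5 to 13.2 kb into the gene. There it was active in KO mESC and bivalent in the other 7 states. The H3K27me3 domain spanned both clusters, with a length of 57.6 kb in WT mESC and 26.25 to 126 kb in the EBs. Lmo2 was also the one gene of the 10 with H3K9me3, the heterochromatin mark, in KO but not in WT mESC; that 158.4 kb domain began 0.658 kb inside the gene.

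Gata2, a zinc finger factor of blood stem cells and endothelium, had in WT mESC the smallest H3K4me3 domain of the bivalent genes, 3.9 kb. None was listed in KO mESC. In WT EBs at week 1 the domain measured 14.8 kb, from -3.88 to 10.9 kb. The KO domain at week 1 was 9.1 kb long and began only 0.816 kb inside the gene. At week 3 the only WT domain within 2 kb of the annotated start lay upstream, from -3.88 to -0.285 kb. No KO domain lay so near. Within 10 kb of that start, H3K4me3 covered 9.6 kb in WT and 4.4 kb in KO. The second start, 4.77 kb inside, was bivalent in both genotypes. The call of repressive for Gata2 in KO EBs at week 3 therefore holds for the first start alone.

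Runx1, which drives the emergence of blood stem cells from endothelium, has a distal and a proximal promoter far apart. At the distal start, which is the annotated gene start, there was no mark in mESC of either genotype. A short H3K4me3 domain of 3.2 kb in WT and 2.8 kb in KO appeared at week 1. H3K27me3 joined it at week 2 in both genotypes. At week 3 both marks were listed there in WT and neither in KO. The proximal starts, 128.7 to 130.4 kb into the gene, followed another course: bivalent in WT mESC, active in KO mESC and bivalent in all 6 EB states. When each gene was read at any of its annotated starts, bivalency was called at 7 of 10 genes in WT mESC and at 1 in KO, against 19.9% and 4.67% of all genes read in the same way.

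Klf1, the erythroid Kruppel-like factor, lies in a gene-dense region. Its H3K4me3 domain in WT mESC was 253.5 kb long and held 20 coding gene starts, and in KO mESC it was 100.1 kb long and held 9. Its active class therefore describes the neighbourhood as much as the gene. In the EBs, where the bins were smaller, the domain measured 46.8 kb in WT and 11.6 kb in KO at week 1. It measured 32.8 and 32.2 kb at week 2, and 132.4 and 35.2 kb at week 3. H3K27me3 came within 5 kb of the start in WT EBs at all 3 weeks and in KO EBs at week 2 only. The WT domain at week 2 began 3.77 kb past the start, beyond the end of the 3.37 kb gene. With H3K27me3 sought within 10 kb, Klf1 was bivalent in KO at week 1 too, so its class difference there depended on the distance.

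Fli1, an ETS factor shared by blood and endothelium, had a 9.1 kb H3K4me3 domain in WT mESC inside a 1038.6 kb stretch of H3K27me3 that held 4 coding gene starts. Neither was listed in KO mESC. In KO EBs at week 1 the H3K4me3 was split into 2 domains of 2.45 and 4.2 kb on either side of the start, where WT had a single domain of 9.2 kb. The domain was 18 kb in WT and 7.35 kb in KO at week 2, and 6.4 kb in each genotype at week 3. Tal1 and Fli1 had the same class in each of the 8 states. Counted for each of them separately, 100 other coding genes had that sequence of classes.

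Sox18, a SOX factor of vessels and lymphatics, was the one gene bivalent in KO mESC. The H3K4me3 domain was 42.9 kb long in both genotypes and held 4 coding gene starts, and the H3K27me3 domain was 10.8 kb in WT and 12 kb in KO. The mean read count per bin of that H3K27me3 domain was 8.69 in WT and 1.66 in KO, on scales that are not comparable between the 2 libraries. It exceeded 91.7% and 70.8% of the domains of its own list. By score, which is larger for longer domains, it exceeded only 5.87% and 14.4% of them. In EBs, where the bins were smaller, the H3K4me3 domains listed near this start were 0.4 to 2.4 kb long. The exception was a 9.8 kb domain upstream in KO at week 2. At week 2 the class differed through H3K27me3, which was listed in WT over 10.8 kb and not in KO. At week 3 it differed through H3K4me3 near the 2 kb limit: the KO domain was 0.4 kb long, and in WT 7.15 kb of H3K4me3 lay within 10 kb of the start and none within 2 kb.

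Kdr, the growth factor receptor of blood and vessel progenitors, kept H3K4me3 in all 8 states. The domain was 7.8 kb in WT and 9.1 kb in KO mESC, and 6.4 to 10.8 kb in the EBs. Of its calls, only that for H3K27me3 varied. In WT it measured 113.4 kb in mESC, 3.5 kb at week 1, 52.2 kb at week 2 and 147.6 kb at week 3. In KO none was listed in mESC, and the EB domains were 16.2, 97.2 and 102.6 kb, the last of which ended 1.32 kb upstream of the start. Kdr was thus bivalent in 7 states, and 338 other coding genes shared its sequence of classes.

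Cdh5, the cadherin of endothelial junctions, had H3K27me3 without H3K4me3 in mESC of both genotypes. The domain was 1539 kb long in WT, and in KO it was 118.5 kb with a mean of 1.00 read per bin. H3K4me3 first appeared at week 1, as it did at the distal start of Runx1, whose proximal starts were already bivalent in WT mESC. At their annotated starts, these were 2 of 10 genes with H3K4me3 in WT EBs at week 1 but not in WT mESC, against 3.71% of all genes. The week 1 domain was 20.8 kb long in WT and 3.85 kb in KO, and in both genotypes it lay outside H3K27me3. At weeks 2 and 3 it measured 20.8 and 15.6 kb in WT and 7.0 and 14.4 kb in KO, again under H3K27me3.

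Pecam1, an adhesion molecule found on endothelium and also on mouse embryonic stem cells, was the only gene with H3K27me3 in none of the 8 states. Its annotated start had H3K4me3 at week 2 in both genotypes and at week 3 in KO. Each of these domains held 2 coding gene starts, so the calls, and the class difference at week 3, may not describe Pecam1 alone. A cluster of 5 starts 35.2 to 35.7 kb into the gene had no mark in WT mESC and was active in the other 7 states. H3K9me3 covered the annotated start in both mESC libraries, in a 106.2 kb domain in WT and in one of 26415 kb in KO that took in 470 coding gene starts and so says little about Pecam1. Among the 10 genes, H3K9me3 was called at 2 in WT (Cdh5 and Pecam1) and 3 in KO (with Lmo2), against 29.7% and 40.1% of all genes.

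**Figure D2:**
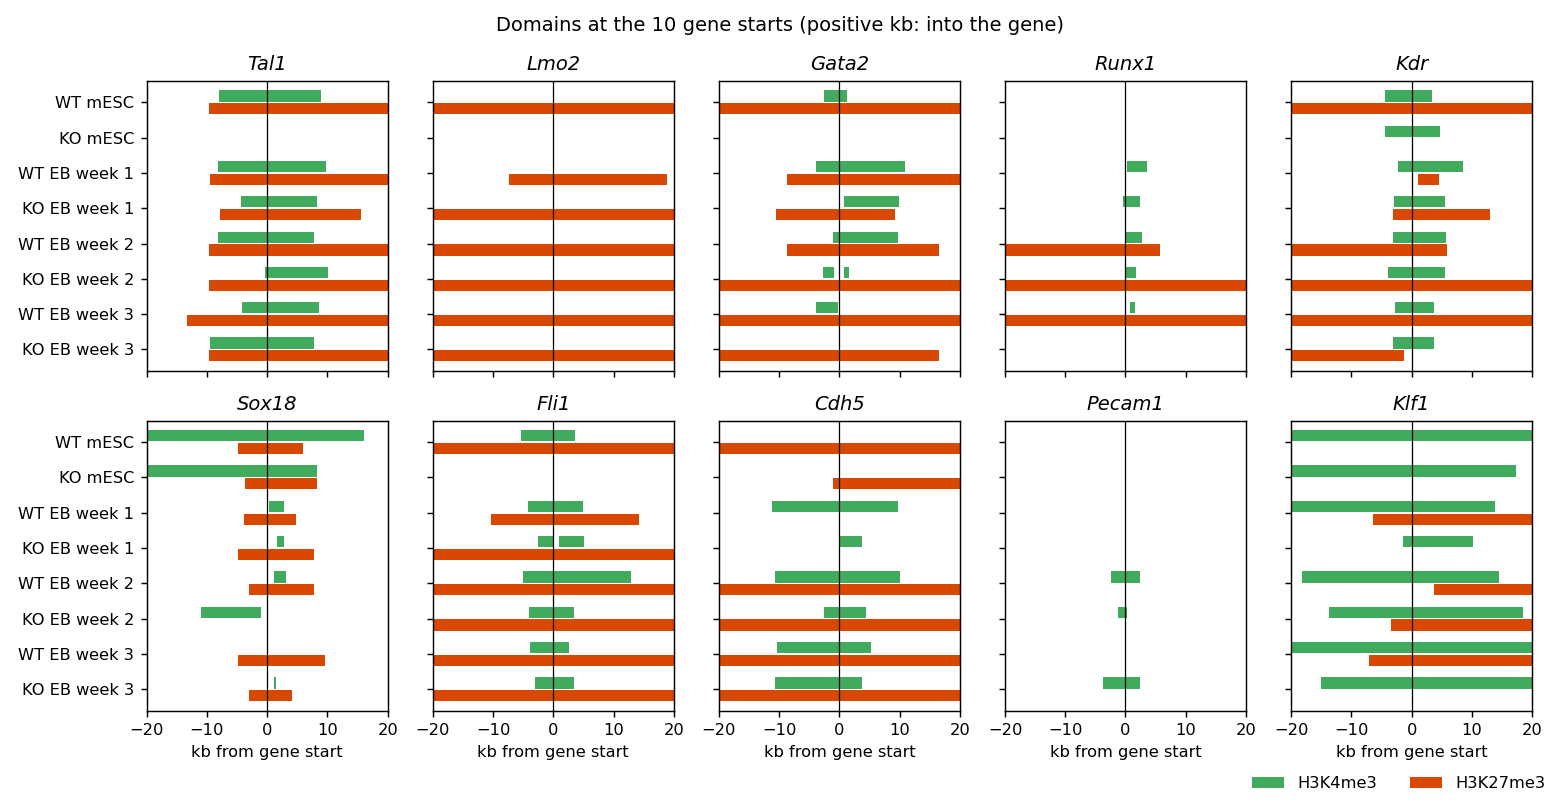
H3K4me3 (green) and H3K27me3 (red) domains that met the distance rule at each of the 10 gene starts, drawn from 20 kb upstream to 20 kb inside the gene (x axis, kb) for the 8 cell states (rows); bars that reach a panel's edge continue beyond it. Both marks are missing at Tal1, Gata2 and Fli1 in KO mESC, and the Cdh5 H3K4me3 domain at week 1 is 20.8 kb in WT and 3.85 kb in KO.

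The sequence at the starts divided the genes in the same way as their class in WT mESC. CpG content was expressed as observed over expected CpG in the start and 500 bases on either side, with a median of 0.549 over coding genes. Tal1 (0.804), Sox18 (0.770), Gata2 (0.767), Fli1 (0.737) and Kdr (0.665) lay above it, and these were the 5 bivalent genes. Runx1 (0.342), Pecam1 (0.294), Cdh5 (0.244), Lmo2 (0.165) and Klf1 (0.0783) lay below, and none of the 5 was bivalent. Over all coding genes, 26.2% of those above the median and 10.5% of those below it were bivalent in WT mESC. The internal starts of Lmo2 that were bivalent had ratios of 0.546 to 0.905 and those of Runx1 0.696 to 0.865, while the internal starts of Pecam1, never bivalent, had 0.216 to 0.280. Some internal starts did not follow this division. The starts of Lmo2 at 13.2 kb (0.546) and of Tal1 at 3.08 kb (0.512) lay below the median and were bivalent in WT mESC. The second start of Gata2 (0.680) was repressive there. In WT EBs the division was looser, with 3 of the 5 CpG-poor starts bivalent at each of weeks 2 and 3, against 9.76% and 12.7% of all genes at or below the median.

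**Figure D3:**
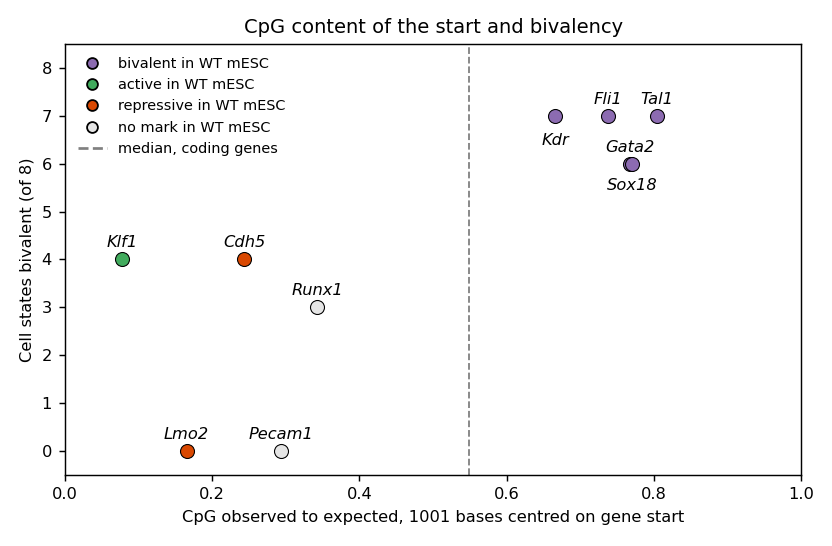
CpG observed over expected in the 500 bases on either side of each annotated gene start (x axis) against the number of the 8 cell states in which the start was bivalent (y axis); colours give the class in WT mESC and the dashed line the median of coding genes, 0.549. The 5 genes right of the line were bivalent in 6 or 7 states, and the 5 left of it in 0 to 4.

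The 250 bases before the start are printed for 3 genes that took 3 different classes over the libraries, Gata2, Runx1 and Sox18. They are read from mm9 on the strand of the gene, 5′ to 3′, with each CpG in capitals. The stretches are chr6:88143635-88143884 (plus strand), chr16:92826312-92826561 (minus) and chr2:181406346-181406595 (minus).
Gata2: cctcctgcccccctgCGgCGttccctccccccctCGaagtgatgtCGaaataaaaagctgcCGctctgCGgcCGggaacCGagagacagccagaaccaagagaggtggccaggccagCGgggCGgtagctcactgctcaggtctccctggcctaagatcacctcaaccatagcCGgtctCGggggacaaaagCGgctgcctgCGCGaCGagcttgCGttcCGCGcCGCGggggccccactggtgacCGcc
Runx1: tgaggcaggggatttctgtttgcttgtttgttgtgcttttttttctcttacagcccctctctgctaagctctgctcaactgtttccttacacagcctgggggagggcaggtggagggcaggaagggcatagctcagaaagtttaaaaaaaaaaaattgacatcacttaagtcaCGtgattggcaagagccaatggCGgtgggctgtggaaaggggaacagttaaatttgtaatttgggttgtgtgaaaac
Sox18: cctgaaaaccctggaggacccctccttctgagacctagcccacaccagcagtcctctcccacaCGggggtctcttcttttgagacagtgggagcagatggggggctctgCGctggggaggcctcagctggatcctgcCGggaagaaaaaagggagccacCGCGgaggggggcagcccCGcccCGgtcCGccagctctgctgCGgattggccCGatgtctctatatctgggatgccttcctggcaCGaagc

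Gata2 held 22 CpGs in this stretch, Sox18 11 and Runx1 2, where the median over coding genes was 8. The same stretch of all 10 genes was searched on both strands for 4 short words bound by factors of this network, and a match is a description of letters, not of binding. AGATAA, a word of GATA factors, occurred at Tal1 and Lmo2 (9.33% of all coding genes), and CCGGAA, an ETS word, at Kdr (13.9%). CAGATG, an E-box, occurred at Kdr, Sox18, Pecam1 and Klf1 (12.8%), and CCACACCC, a word of KLF factors, at Fli1 (3.25%). No word was shared by more than 4 of the 10.

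Around the starts, H3K4me3 covered less of the surrounding 10 kb on either side in KO EBs at week 1. Of the genes with a domain in both genotypes, 8 of 8 had less in KO, where 81.9% of all such coding genes did. The median of the 8 was 12.3 kb in WT and 7.53 kb in KO, and over all genes it was 7.6 and 5.6 kb. Cdh5 had 19.7 kb in WT and 3.85 kb in KO, Gata2 13.9 and 9.1 kb, and Runx1 only 3.2 and 2.8 kb. At week 2, 7 of 9 genes had less in KO (66.8% of all genes). At week 3, 2 of 5 did (45%), and in mESC 1 of 3 (41.9%). The bins in which domains were called were 400 bp long in WT and 350 bp in KO at weeks 1 and 2, and the direction at week 1 was that of most genes.

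**Figure D4:**
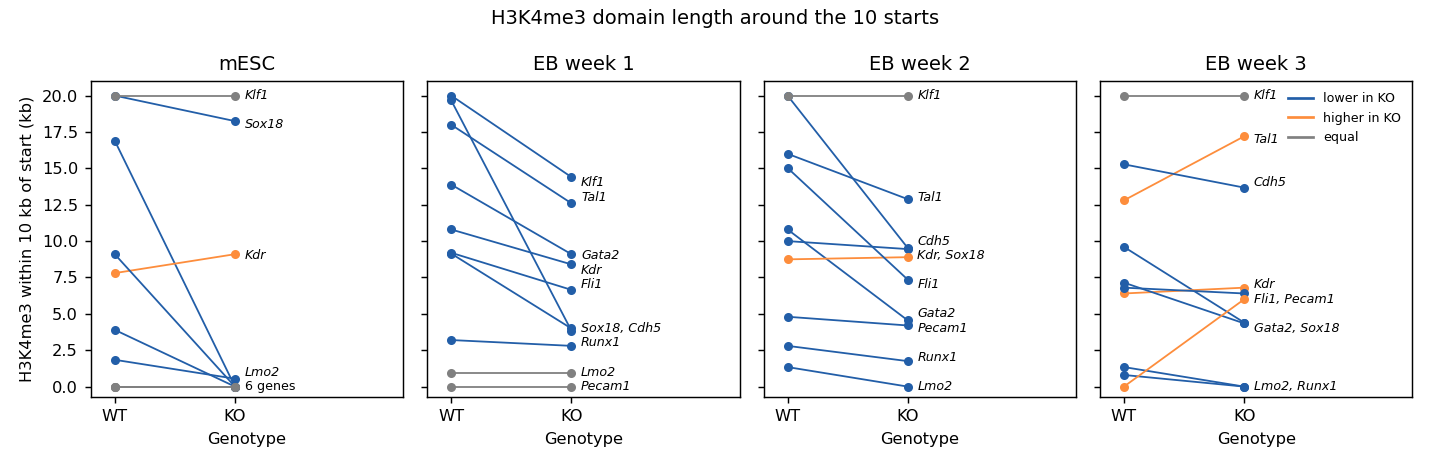
H3K4me3 domain length within 10 kb either side of the gene start (y axis, kb) in WT and Uhrf1 KO at the 4 stages, 1 line for each of the 10 genes; blue lines fall from WT to KO, orange lines rise and grey lines are level. At week 1 all 8 genes with a domain near the start in both genotypes fall.

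Sites of the pluripotency factors were mapped in mESC only. The region searched grows with the gene, and the 10 genes had a median length of 33.4 kb, against 15.4 kb over all coding genes. Oct4, the POU factor of stem cells, had 7 summits near 4 of the genes in WT (Tal1, Fli1, Cdh5 and Pecam1), where 30.1% of all genes had one. In KO there was 1 summit, at Pecam1, where 1.1% of all genes had one. The tallest WT site of Pecam1, Fli1 and Tal1 is shown with 50 bases on either side of the summit, from the plus strand of mm9, and with matches to the octamer ATGCAAAT and to the SOX words ACAATG and ACAAAG, on either strand, in capitals. The windows are chr11:106585866-106585966 (in an intron of Pecam1), chr9:32222687-32222787 (intergenic, past the end of Fli1) and chr4:114729782-114729882 (in an intron of Tal1).
Pecam1: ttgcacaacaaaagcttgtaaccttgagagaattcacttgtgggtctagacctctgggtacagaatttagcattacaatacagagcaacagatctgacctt
Fli1: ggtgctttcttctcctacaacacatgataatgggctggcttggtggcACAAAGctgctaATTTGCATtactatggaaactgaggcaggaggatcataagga
Tal1: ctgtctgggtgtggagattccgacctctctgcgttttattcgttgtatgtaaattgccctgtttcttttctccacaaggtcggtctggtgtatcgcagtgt

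The Fli1 window held ACAAAG on the plus strand and the octamer on the minus strand, 9 bases after the summit. The Pecam1 and Tal1 windows held none of these words. Over 12697 windows of WT Oct4 summits, 8.82% held the octamer, 7.88% held ACAATG and 13.7% held ACAAAG.

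The Cdh5 site lay at -8.06 kb, upstream of the start, and was the tallest near any of the genes, with 122 reads at the Oct4 summit, above 99.0% of the WT list. Nanog, a homeodomain factor of the same circuit, had a summit of 37 reads within 100 bp in WT and one of 29 reads in KO, while Oct4 had none in KO. In WT mESC the site lay in H3K27me3 and H3K9me3. In WT EBs at week 1 the Cdh5 H3K4me3 domain covered it, from -11.1 to 9.68 kb, and the KO domain, from -0.124 to 3.73 kb, did not. At weeks 2 and 3 an H3K4me3 domain covered the site in both genotypes.

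In Pecam1, 26 kb into the gene, all 3 factors had summits within 100 bp of each other in both genotypes. There Oct4 had 111 reads in WT and 20 in KO, Sox2 65 in WT and 126 in KO, and Nanog 27 in WT and 48 in KO. The heights are not scaled between libraries and are given side by side. They exceeded 98.2% and 37.7% of the summits of their own lists for Oct4, 94.7% and 99.4% for Sox2, and 69.8% and 96.6% for Nanog. A second site of Pecam1, at 27.8 to 27.9 kb, had Sox2 and Nanog summits in WT and Nanog alone in KO. A WT Oct4 summit at 27.5 kb had no other summit within 100 bp. The other 2 Oct4 summits of 26 reads, at 81.2 and 114.4 kb, were listed in WT only.

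Past the end of Fli1, 126.2 kb from its start, Oct4 with 54 reads and Sox2 with 21 shared a site in WT. In KO, Sox2 with 39 reads and Nanog with 13 were listed there and Oct4 was not. At Tal1 the WT Oct4 summit lay 0.801 kb inside the gene with 20 reads, above only 7.22% of the list. These 4 genes account for every Oct4 summit, and Lmo2, Gata2, Runx1, Kdr, Sox18 and Klf1 had no summit of any of the 3 factors in WT mESC.

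Sox2 sites went the other way. There were 3 summits near 2 genes in WT and 24 near 8 genes in KO, where 18.8% and 57.7% of all genes had one. At 6 genes (Tal1, Lmo2, Gata2, Runx1, Sox18 and Klf1) a Sox2 site was listed in KO alone, against 39.7% of all genes. Nanog had 3 summits near 2 genes in WT and 9 near 5 in KO (7.51% and 27.4%), with 3 genes, Tal1, Gata2 and Fli1, in KO alone (20.1%). Kdr had no summit of any factor in either genotype.

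Many of the KO Sox2 summits stood at starts, a pattern looked for after the positions had been seen. Within 2 kb of an annotated transcript start, 7 of the 10 genes had one in KO and none had one in WT, against 29.8% and 5.78% of all genes. The nearest lay 42 bp from the second start of Gata2, 55 bp from an internal start of Lmo2, 56 bp from the proximal start of Runx1 and 56 bp from the start of Fli1. At Tal1 the distance was 230 bp, at Sox18 522 bp and at Klf1 1361 bp. These 10 summits were low, at 10 to 17 reads against a median of 18 in the list. With the KO list cut to the tallest 5190 summits, the size of the WT list, none of the 10 genes had one within 2 kb of a start (3.63% of all genes), and Lmo2, Fli1, Pecam1 and Klf1 had one within 20 kb (17.8%).

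**Figure D5:**
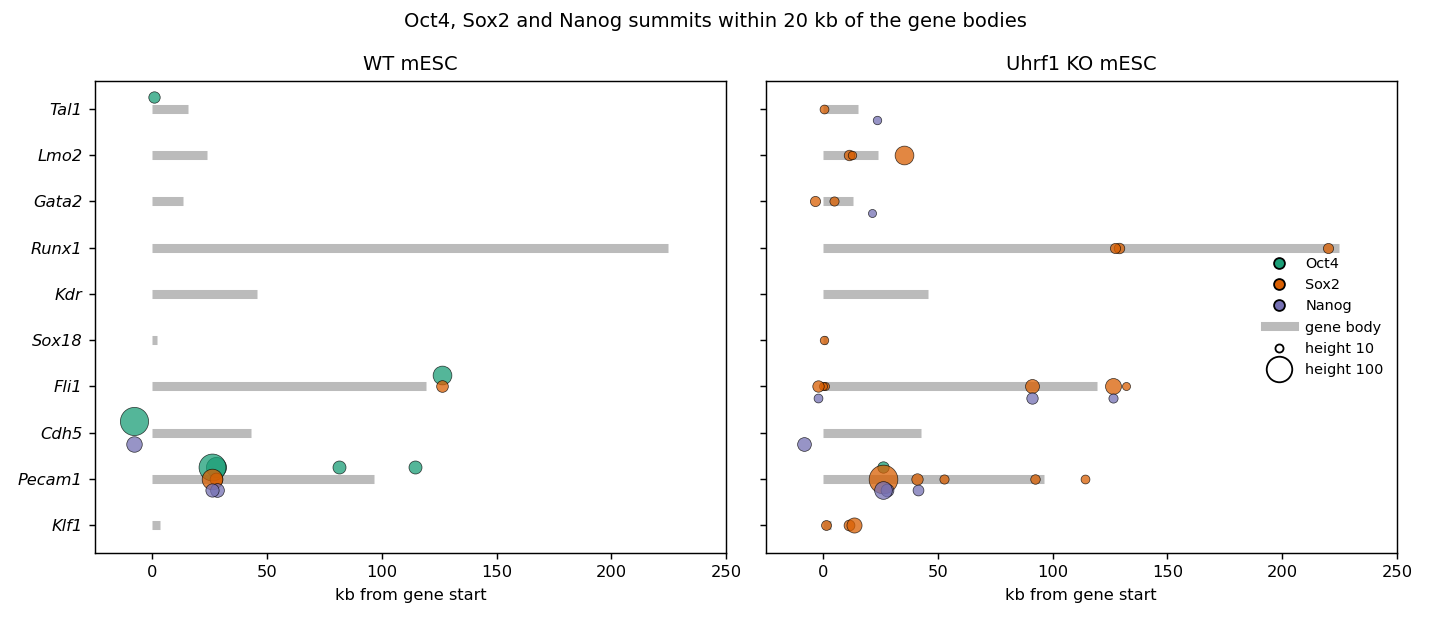
Oct4 (green), Sox2 (orange) and Nanog (purple) summits within 20 kb of each gene body in WT and Uhrf1 KO mESC, by distance from the gene start (x axis, kb; positive into the gene); grey bars are gene bodies and the area of a circle is proportional to the reads at the summit. WT holds 7 Oct4, 3 Sox2 and 3 Nanog summits, and KO holds 1, 24 and 9.

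Uhrf1 itself was not listed on any of the genes in WT mESC. No enriched window of 10 kb overlapped any of the 10, where 9.84% of coding genes had one. The nearest window lay 59.8 kb from Fli1, 63.7 kb from Sox18, 98.1 kb from Lmo2 and 125.6 kb from Tal1. The other 6 genes had theirs at 320.8 to 1341.7 kb. The median distance was 323.2 kb for the 10 genes and 172.1 kb over all coding genes.

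Other genes of the blood and endothelial programme, were taken from 5 lists that held none of the 10. Of 69 genes, 32 were bivalent in mESC of the WT line and 7 in those of the KO line (18.3% and 4.29% of all coding genes). In EBs there were 34 and 28 at week 1 (15.2% and 10.7%). At week 2 there were 29 and 27 (13.7% and 13.4%), and at week 3 there were 35 and 26 (19.6% and 11.3%). The class differed between genotypes at 38 of the 69 in mESC (36.4% of all genes). It differed at 18, 16 and 19 at weeks 1, 2 and 3 (18.1%, 29% and 23%). Of the 32 bivalent in WT mESC, 17 were active, 8 without mark, 4 bivalent and 3 repressive in KO. Among all WT bivalent genes these classes held 60.5%, 19%, 14.6% and 5.8%. A Sox2 site within 2 kb of a transcript start was listed at 9 of the 69 in WT and 31 in KO (5.78% and 29.8%).

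Among these, Esam, an endothelial adhesion molecule, Nr2f2, a nuclear receptor of veins, and Sox7, a relative of Sox18, had the class of Tal1 and Fli1 in every state. Flt1 and Flt4, the other receptors for vascular endothelial growth factors, and Foxc1 had that of Kdr. Bmp4, a ligand that induces blood-forming mesoderm, was bivalent in WT and active in KO at all 4 stages. Cldn5, the tight junction protein of vessels, was bivalent in WT and active in KO in mESC and at weeks 1 and 3. Cd34, a surface protein of blood progenitors, was bivalent in WT and without mark in KO mESC. Other genes whose class differed at most stages in their list were Cbfa2t3, Cbfb, Erg, Ets1 and Slc4a1, with no more than 3 stages each.

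Counts for other mesodermal sets are given beside these. Of 10 cardiac transcription factors, 7 were bivalent in WT and 1 in KO mESC, and 9 in each genotype at week 2. Of 10 primitive streak genes, 8 were bivalent in WT and 3 in KO mESC. Among all coding genes 18.3% were bivalent in WT and 4.29% in KO mESC, and 13.7% and 13.4% at week 2. A difference between the sets could not be tested with 1 library in each group.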

How the data were processed

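The authors mapped ChIP-seq reads to mm9 with Bowtie2 2.1.0, reporting 1 alignment for each read, and no libraries were pooled. Of 33 samples, 25 had a list, and the 8 inputs were not analysed here. Histone domains were called by the authors with RSEG against input. The deposited signal of a domain is its mean number of reads in a bin, and the deposited score is larger for longer domains. It is not stated whether either was scaled, so both were ranked only within a list. The authors used MACS for the factors and deposited as signal the height of each summit in reads. The Uhrf1 windows carry no value. The deposited lists carry no read totals, and those the study tabulates were not used here.

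Gene starts were those of GENCODE vM1 on NCBIM37, the same assembly. In 530 list and chromosome pairs, 0 ran past the chromosome end. Overlap of 1 bp was enough, counts were made in Python 3.11 with numpy 2.4.6, and the overlap code was tested on simulated data (15000 calls, 0 wrong). Shares printed beside counts are over all coding genes unless another set is named. The 10 genes, the other lists and the distances were chosen with earlier results of these data known. Named genes were all 10, list genes with the same classes (at most 3 a gene, alphabetical), and in each of 5 lists the 2 whose class differed at most stages. Spi1, Gfi1 and Sox1 were not matched, and some named genes and sequences are not reported here. Alternatives were other distances, higher-scoring domains, any annotated start, and windows covered by 50% or more.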

Additional observations from a re-analysis of the deposited data

How the results depend on the processing

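Of 140 alternative values for the 21 counts of genes, 39 moved by more than 1.5 times from the count reported and the others did not. With domains above the median score, the bivalent genes were 1 in WT and 0 in KO mESC and 3 and 4 at week 2, and the class differed at 3 genes at week 1, 4 at week 2 and 3 at week 3. With at least 50% of the window covered, 3 genes were bivalent in KO at each of weeks 1 and 3, the class differed at 4 at week 1 and 5 at week 2, and 1 gene had H3K9me3 in KO. Read at any annotated start, 8 genes were bivalent in KO at week 3 (12.4% of all genes) and the class differed at 2. With other distances the class differed at 2 genes at week 1 (H3K4me3 within 1 kb), 2 at week 2 (H3K27me3 within 2 kb) and 3 at week 3 (H3K4me3 within 5 kb). With lists of equal number, chosen after seeing the data, 1 gene was bivalent in WT mESC (2.98% of all genes), 2 had an Oct4 site in WT (2.24%), and 4 had a Sox2 (17.8%) and 2 a Nanog site (8.48%) in KO. Within 5 kb of the gene body, Oct4 sites in WT were at 2 genes, Sox2 in WT at 1, and Nanog at 1 in WT and 2 in KO. Within 20 kb of the gene start these were 2 (20.3% of all genes), 0 (13.2%), 1 (4.47%) and 2 (17.7%), with Oct4 at 0 in KO (0.563%). With summits above the median height, Oct4 was at 0 in KO, Sox2 at 1 in WT and 4 in KO, and Nanog at 3 in KO. Within 2 kb of any start, Oct4 was at 1 in WT and 0 in KO (6.51% and 0.17% of all genes). There Sox2 was at 0 in WT (5.78%), and Nanog at 0 in both WT and KO (0.943% and 4.14%). Where a count stands without a share, the share of all genes under that rule is not given. The cause of these moves was not tested.

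Bivalent genes were more numerous in WT than in KO mESC under each of the 7 other distances, filters and start rules. They were equal under lists of equal number, where only the WT mESC lists were cut and the KO count was fixed. In EBs the order was WT above KO, equal or reversed depending on the alternative (KO above WT by 1 gene at week 1 with H3K27me3 within 10 kb). No paired analysis was possible because each group held 1 library and no result came from a test. Read totals were not used here, and a mark that was not listed may lie below detection.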
